A study of Mus musculus with 4 samples.

Results

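The replication-dependent histone genes are the 66 genes of the count table whose symbol starts with Hist1h, Hist2h, Hist3h or Hist4, of 27998 genes in all. They were taken by name only, with the GENCODE M21 annotation of GRCm38, which holds 70 such symbols. Of the 66, 53 belong to the Hist1 cluster, 10 to Hist2, 2 to Hist3 and 1 to Hist4, and by product 6 encode linker histone H1, 19 H2A, 16 H2B, 12 H3 and 13 H4. Single thymic regulatory T (Treg) cells, CD4 T cells that restrain immune responses, were profiled from mice 3 weeks old with the 10x Chromium 3' v2 kit, in which each captured RNA molecule is tagged and counted once (a UMI). There were 4 samples, all B6 mice with Rag2-Gfp and Foxp3-Thy1a, sorted as CD4+CD8-Thy1.1+GFP+ cells, and they were IL2 wt/wt, IL2 o/o, IL15 wt/wt and IL15 o/o. The Gfp reporter is driven by Rag2 sequence and so marks recently formed T cells, and the Thy1a reporter marks cells that express Foxp3. Cells carry a barcode suffix from 1 to 4, taken here as libraries 1 to 4. No label ties a suffix to a genotype, so the libraries are unassigned, genotypes were not compared, and the 4 libraries are not replicates of a group.

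These genes encode the bulk of the core and linker histones that package newly made DNA, and in dividing cells their mRNAs accumulate in S phase and are degraded when replication ends. Most replication-dependent histone mRNAs have no poly(A) tail and end in a conserved stem-loop, bound by Slbp, while some of the genes can also give polyadenylated transcripts, chiefly in cells that have left the cycle. A 3' kit of this kind primes on poly(A), so the UMIs count the RNA that was captured that way and not all histone RNA.

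The stem-loop and the ends of the annotated transcripts are shown because the members were captured so unequally. In the longest annotated transcript (GENCODE M21), the histone stem-loop consensus was found in 43 of 66 members. Of 21901 protein-coding genes, histone genes included, 0.356% held the consensus in any of their coding transcripts. It reads as follows in some of the members described further on, at least 1 of each type, with the stem and loop in capitals.
Hist1h2ap (H2A): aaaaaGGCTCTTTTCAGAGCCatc
Hist1h2ae (H2A): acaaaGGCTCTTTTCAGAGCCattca
Hist1h4i (H4): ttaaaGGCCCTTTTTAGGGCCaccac
Hist1h4d (H4): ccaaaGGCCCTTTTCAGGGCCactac
Hist1h1c (H1): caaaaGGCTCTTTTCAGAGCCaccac
Hist1h1e (H1): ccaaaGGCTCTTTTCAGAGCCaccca
Hist3h2ba (H2B): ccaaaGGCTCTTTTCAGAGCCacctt
Hist1h2bj (H2B): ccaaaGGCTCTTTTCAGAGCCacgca
Hist1h3a (H3): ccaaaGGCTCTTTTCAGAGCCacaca
The H2A, H2B, H1 and H3 genes shown share the same stem and loop, and the H4 genes shown carry another stem. The poly(A) signal AATAAA, read on the transcript's own strand, lay in the last 50 bases of an annotated transcript of 14 of 66 members, against 65.7% of all protein-coding genes. It is shown here in capitals for some of the members to which later results refer.
Hist1h2ae: ccAATAAAtgggtcaatttttttcagattc
Hist1h1c: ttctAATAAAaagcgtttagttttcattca
Hist3h2ba: attAATAAAtttggttcaattttggccaca
Hist2h2be: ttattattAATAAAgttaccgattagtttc
Hist2h3c1: taatcccAATAAAaatttaacacactgcta
Of these 5, Hist1h2ae, Hist1h1c, Hist3h2ba and Hist2h3c1 also hold the stem-loop consensus upstream. In Hist1h1c the annotated end lies 840 bases past the stem-loop and in Hist3h2ba 169 bases past it, while in Hist1h2ap the transcript ends 3 bases past it. A match in either search is a description of the annotation and not of the RNA in these cells. Some annotated transcripts are short and hold neither match, such as Hist1h2ak (393 bases), Hist1h3i (411 bases) and Hist1h2bl (381 bases). Whether such annotations stop before these elements was not tested.

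The members gave 23539 of 33232250 UMIs in 8273 cells, with 795 to 32737 UMIs per cell. Levels are UMIs per 1000000 UMIs (CPM) of summed cells, with exact Poisson 95% intervals that cover counting error only. Cells outnumber the samples but are not replicates, so no p-value was computed. Treg markers were abundant in every library (2743 to 3973 CPM in libraries 1 to 4), and the erythroid markers stood apart in library 3, at 20240 CPM in its cells outside the G1 table described next against at most 1.58 CPM in such cells of the other libraries.

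Histone RNA was concentrated in a few members. Hist1h2ap, an H2A gene on chromosome 13 (21833026 to 21833507, minus strand, GRCm38), gave 11047 UMIs, 46.9% of all histone UMIs. The H2A gene Hist1h2ae followed with 1670, the H4 gene Hist1h4i with 1020 and the H1 gene Hist1h1c with 949. In all, 15 members had at least 200 UMIs, 40 had 20 or more but fewer than 200, 7 had 1 to 19 and 4 (the testis-type genes Hist1h1t and Hist1h2aa, and Hist1h2bq and Hist1h2br) had 0. Near-identical copies limit what a single symbol means. Of the 60-base stretches of the Hist1h2ap transcript, 92.9% also occur in another histone transcript, 30 members share over 50% of theirs, and 7 share none. A level of a member with shared sequence is therefore uncertain. Whether the sums by histone type are less so was not tested.

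The authors deposited a second table of 7231 cells named as G1 cells, the phase before replication, and 1042 cells of the count table are outside it. The rule behind the G1 table was not found in the labels, so cell cycle genes, histones among them, may have taken part in that choice. All 66 members together stood at 274 CPM (268 to 281) inside the G1 table and 2897 CPM (2852 to 2942) outside it. Inside the table the 4 libraries were close, at 268, 255, 250 and 323 CPM in libraries 1 to 4. Outside it they were at 3541, 2630, 1303 and 3212 CPM, so that every library was higher outside and library 3 was the lowest there. The cells outside were unlike in kind. Of those in library 3, 9 of 253 were rich in G2 and M phase genes by the limit defined below. In libraries 1, 2 and 4 these were 102 of 212, 184 of 345 and 109 of 232. The ratio, stratified by library, was 10.5-fold, 5.80-fold without Hist1h2ap and 11.1-fold without library 3.

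Hist1h2ap alone made up 61.8% of the difference in summed CPM and all H2A genes together 79.5%. The H2A sum went from 121 CPM inside to 2205 CPM outside (17.9-fold, or 9.11-fold without Hist1h2ap), against 6.63-fold for H3, 4.89-fold for H4, 4.55-fold for H1 and 3.599-fold for H2B, each higher outside in 4 of 4 libraries. A member was called higher or lower when its ratio was at least 1.5-fold, with at least 20 UMIs and 1 direction shared by all libraries that had 20 or more cells in each of the sets compared. By that rule 41 of 55 tested members were higher outside, against 8.11% of 11140 genes of the whole table, and 0 were lower, against 5.15% of all genes. The median log2 ratio of the tested members was 2.88, against -0.04 over all genes tested. By type this median was 3.32 for H2B, 3.21 for H2A, 3.00 for H3, 2.47 for H4 and 2.44 for H1. That order differs from the order of the summed ratios, in which abundant members weigh most. All 5 tested H1 genes were called, with 12 of 15 H2A, 9 of 12 H2B, 7 of 12 H3 and 8 of 11 H4 genes.

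Among members with fewer than 200 UMIs the largest ratios outside the G1 table were those of Hist1h2af (33.2-fold, called), Hist1h3g (27.5-fold, not called because the direction was not shared by all libraries) and Hist1h3d (19.96-fold, called). The smallest were Hist2h3c2 (0.82-fold), Hist1h2al (0.96-fold) and Hist2h3c1 (1.17-fold), none of them called. The difference was small among cells low in cell cycle genes. When cells rich in S phase or in G2 and M phase genes, defined next, were left out of both sides, 599 cells remained outside and 6650 inside, and the histone ratio was 1.21-fold higher outside in 3 of 4 libraries, with 4 of 32 members called higher, against 5.03% of all genes in that run, and 0 lower, against 4.23%. Cells left outside had 4.56% mitochondrial UMIs and a median depth of 2056 UMIs, against 2.29% and 3019 UMIs inside, and the part of these differences in that ratio was not tested.

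Cells were then classed by lists that hold no histone gene. A cell was G2M-rich when 30 genes of G2 and M phase gave it at least 20 UMIs per 10000 from at least 5 of them. It was S-rich when 30 replication and S phase genes met the same limit and it was not G2M-rich, and all other cells formed the neither class. This gave 472 G2M-rich cells (115, 219, 11 and 127 in libraries 1 to 4), 552 S-rich cells (117, 248, 20 and 167) and 7249 of neither class. The classes are ranges on a score, with 54 cells within 15 to 25 per 10000 on the G2 and M phase list and 412 on the S phase list. Median depth was 2931 UMIs in the neither class, 7182 in S-rich and 9542 in G2M-rich cells. Of the 552 S-rich cells 513 lay inside the G1 table, and of the 472 G2M-rich cells 404 lay outside it. S-rich is thus a range of a score and not a call of S phase. G2M-rich is likewise not a call of G2 or M phase. The S phase list was as high in G2M-rich cells (4348 CPM) as in S-rich cells (4265 CPM), against 505 CPM in the neither class.

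Histone RNA was high in G2M-rich cells and close to the neither class in S-rich cells. In the neither class the members summed to 190, 171, 236 and 254 CPM in libraries 1 to 4. In S-rich cells they summed to 224, 230, 203 and 297 CPM. In G2M-rich cells they summed to 4231, 3113, 5731 and 3914 CPM. The G2M-rich values lay far above the others in every library and did not overlap with them, whereas the S-rich range overlapped that of the neither class. Compared within library, S-rich cells were higher than the neither class in 3 of 4 libraries and lower in library 3, which had 20 S-rich cells. Over all libraries the levels were 210 CPM (205 to 216) in the neither class, 246 CPM (231 to 261) in S-rich and 3706 CPM (3651 to 3762) in G2M-rich cells. The stratified ratio to the neither class was 18.7-fold for G2M-rich cells and 1.22-fold for S-rich cells, and S-rich cells were 15.1-fold below G2M-rich cells. Without Hist1h2ap these were 8.48-fold, 1.04-fold and 8.01-fold. The S-rich ratio depended on the class limit: at 10 UMIs per 10000 it was 0.94-fold, which turned the direction, and at 40 it was 5.34-fold, where cells at 20 to 40 on the G2 and M phase list can enter the S-rich class.

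**Figure D1:**
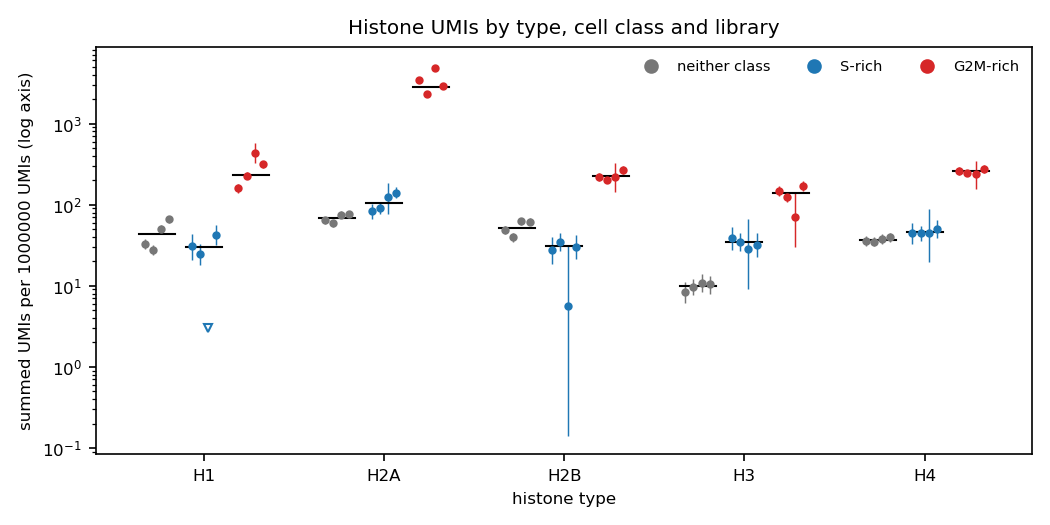
Summed UMIs of each histone type per 1000000 UMIs (log axis) in cells of the neither class (grey), S-rich (blue) and G2M-rich (red); points are libraries 1 to 4 from left to right with exact Poisson 95% intervals, black lines the sum over libraries, and the open triangle a library with 0 UMIs, drawn at an arbitrary height. H2A reaches 2851 CPM in G2M-rich cells, and in S-rich cells H3 has intervals clear above the neither class in libraries 1, 2 and 4, and H2A in libraries 2 and 4.

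H2A, the core histone that pairs with H2B, was at 68.1, 104 and 2851 CPM in neither, S-rich and G2M-rich cells. H2B was at 52.2, 30.7 and 223 CPM, lower in S-rich than in neither class cells in 4 of 4 libraries. H3, which with H4 forms the tetramer at the centre of the nucleosome, was at 9.86, 34.8 and 141 CPM. H4 was at 36.9, 46.2 and 259 CPM, and H1, which binds the linker DNA between nucleosomes, at 43.2, 30.0 and 233 CPM. Against the neither class, the ratios in G2M-rich cells were 43.8-fold for H2A, 14.7-fold for H3, 7.10-fold for H4, 5.96-fold for H1 and 4.60-fold for H2B. In S-rich cells they were 3.595-fold for H3, 1.59-fold for H2A, 1.26-fold for H4, 0.74-fold for H1 and 0.62-fold for H2B. These are ratios of sums, in which abundant members weigh most. By member, the median log2 ratio of those tested in S-rich cells was 1.35 for H3 and 0.60 for H2A. It was 0.45 for H2B, 0.34 for H1 and 0.19 for H4, so positive for every type. Without Hist1h2ap the H2A ratio was 14.6-fold in G2M-rich cells, close to that of H3, and 1.06-fold in S-rich cells. The lead of H2A over H3 in the G2M-rich ratio thus rested on that gene. Without it the ratio of the H2A sum was still above those of the H4, H1 and H2B sums. By member the order differed. The median log2 ratio of those tested in G2M-rich cells was 4.85 for H2A and 4.35 for H2B. It was 4.28 for H3, 3.07 for H4 and 2.98 for H1. The H3 sum came nearest to its G2M-rich level in S-rich cells, 4.01-fold below it, and H2A was farthest, 27.6-fold below, or 13.8-fold without Hist1h2ap. Of 7 tested H3 members only Hist1h3a (9.13-fold) was called higher in S-rich cells, and 1 was lower, against 12.1% and 15% of all genes.

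Of 53 members tested in G2M-rich against neither class cells, 49 were higher, against 15.4% of all genes, and 0 were lower, against 17.9%. Library 3 entered no direction here, since it had only 11 G2M-rich cells. The median log2 ratio was 4.06 for the members and -0.09 over all genes tested. In S-rich cells 4 of 37 tested members were higher, against 12.1% of all genes, and 6 were lower, against 15%, so both shares were near the background of the table. That count rested on library 3, whose 20 S-rich cells held 0 UMIs of several members. Without it 13 of 35 were higher, against 15.2% of all genes in that run, and 7 lower, against 16.4%. Among G1-table cells alone 14 of 37 were higher, against 15.2%, and 6 lower, against 16.7%. Without double-positive-like cells, those with at least 2 of 10 markers of an earlier thymocyte stage, 14 of 36 were higher, against 15.2%, and 6 lower, against 16.8%. In both of these runs library 3 fell under 20 S-rich cells and no longer entered the direction. Within the G1 table, G2M-rich cells gave 30 of 37 members higher, against 20.6%, and 2 lower, against 21.6%, with the direction taken from library 2 alone.

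Hist1h2ap stood at 20.8, 17.5, 27.5 and 22.1 CPM in the neither class of libraries 1 to 4. In S-rich cells it was at 41.4, 44.1, 78.8 and 83.5 CPM, above the neither class in each library. In G2M-rich cells it was at 2808, 1736, 3800 and 2086 CPM. The ratio was 2.79-fold for S-rich and 110-fold for G2M-rich cells. The gene had a UMI in 87.7% of G2M-rich cells, 18.8% of S-rich cells and 6.25% of neither class cells. With each cell thinned to 1811 UMIs these shares were 77.5%, 6.23% and 3.48%, for 463, 546 and 6438 cells. Whether the share in the neither class is background was not tested. Hist1h2ap made up 59.2% of histone UMIs in G2M-rich cells, 22.7% in S-rich and 10.3% in neither class cells.

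Several other H2A genes were also higher in G2M-rich cells, with other sizes. Hist3h2a, an H2A gene with 660 UMIs, was not and is described further on. Hist1h2ae was at 6.21, 5.96, 5.35 and 8.09 CPM in the neither class and at 297, 269, 550 and 389 CPM in G2M-rich cells of libraries 1 to 4, a 48.2-fold difference with no overlap, and 1.61-fold higher in S-rich cells. Hist1h2ag was at 3.47, 3.11, 0.369 and 3.14 CPM in the neither class and 121, 117, 96.1 and 123 CPM in G2M-rich cells (37.9-fold), with 3.16-fold in S-rich cells. Hist1h2ak was 18.6-fold higher in G2M-rich cells, at 40.5 against 2.01 CPM. Hist1h2af, with 152 UMIs, was at 30.1 CPM in G2M-rich and 0.288 CPM in neither class cells. Its stratified ratio of 242-fold rests on 7 UMIs in the neither class and on the weighting of libraries, and the quotient of its summed levels is lower.

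Hist1h3a, an H3 gene, had the highest ratio of the 4 members called higher in S-rich cells. It was at 1.28, 2.03, 1.84 and 2.64 CPM in the neither class of libraries 1 to 4, at 18.7, 18.8, 16.9 and 17.4 CPM in S-rich cells, and at 35.6, 32.5, 8.74 and 32.4 CPM in G2M-rich cells. The S-rich values did not overlap the neither class. Library 3 had only 20 S-rich and 11 G2M-rich cells, so its values rest on few UMIs and their likeness to the others is uncertain. The ratios were 9.13-fold for S-rich and 16.7-fold for G2M-rich cells. Hist1h3a made up 7.46% of histone UMIs in S-rich cells (5.93 to 9.24, exact Clopper-Pearson), against 0.938% in the neither class and 0.886% in G2M-rich cells.

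The H4 genes had intermediate ratios. Hist1h4i was at 13.9, 15.6, 12.9 and 14.0 CPM in the neither class, 12.8, 14.0, 22.5 and 21.7 CPM in S-rich and 133, 131, 87.4 and 126 CPM in G2M-rich cells of libraries 1 to 4 (8.82-fold for G2M-rich, and 1.11-fold, not called, for S-rich). Hist1h4d was 8.83-fold and Hist1h4c 3.28-fold higher in G2M-rich cells, at 38.2 and 19 CPM there. Neither was called in S-rich cells, where their ratios were 1.98 and 0.86. Among H2B genes Hist1h2bj was at 1.64, 8.81 and 64.8 CPM in the 3 classes, 33.7-fold higher in G2M-rich cells and 4.58-fold, not called, in S-rich cells.

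The linker histone genes differed widely among themselves. Hist1h1b was at 0.731, 1.35, 0.922 and 1.82 CPM in the neither class and 65.5, 76.3, 245 and 119 CPM in G2M-rich cells of libraries 1 to 4, 69.8-fold higher. Hist1h1e was 7.87-fold higher, at 69.1 against 9.37 CPM, and overlaps Hist1h2be on the same strand, so their reads may not be separable. Hist1h1c, the most abundant H1 gene, was at 20.1, 18.3, 36.9 and 41.9 CPM in the neither class, 13.8, 6.45, 0 and 19.1 CPM in S-rich and 30.6, 43.3, 61.2 and 56.0 CPM in G2M-rich cells. It was thus 1.71-fold higher in G2M-rich and 2.29-fold lower in S-rich cells. Its neither class levels in libraries 3 and 4 were above those in libraries 1 and 2.

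**Figure D2:**
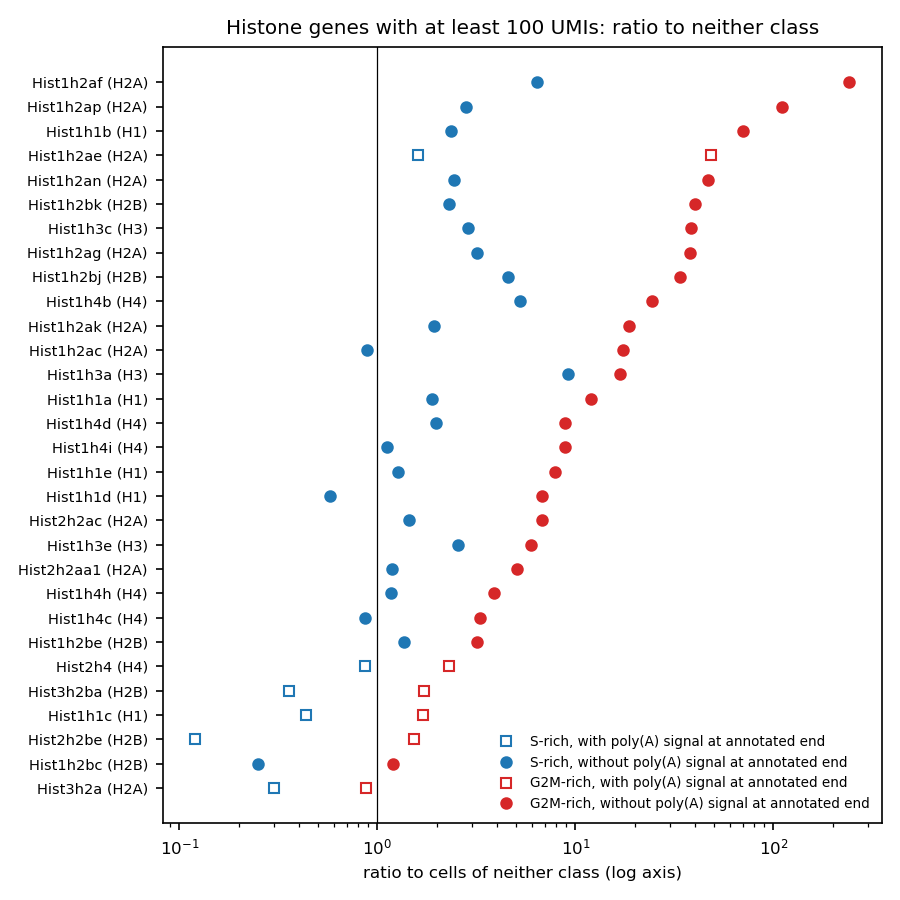
Ratio to cells of the neither class (log axis) for the members with at least 100 UMIs, in S-rich (blue) and G2M-rich (red) cells, ordered by the G2M-rich ratio; open squares are members with a poly(A) signal at an annotated transcript end and filled circles the others. Of the 30 genes shown, Hist3h2a is the only gene with a G2M-rich ratio under 1 (0.871), and Hist1h2af is at the top with 242.

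The 6 members called lower in S-rich cells had G2M-rich levels at or moderately above those of the neither class. These were singled out after their values were seen. Hist3h2a was at 19, 18.8, 26.4 and 26.6 CPM in the neither class, 2.96, 7.53, 11.3 and 6.96 CPM in S-rich and 13.5, 18.7, 8.74 and 24.5 CPM in G2M-rich cells of libraries 1 to 4. Its S-rich values lay below the neither class in every library (3.33-fold lower), and its G2M-rich ratio was 0.87, not called. The gene overlaps Trim17 on the same strand, so some of its UMIs may belong to that gene. Hist3h2ba, its H2B neighbour, was at 20.2, 6.43 and 29.2 CPM in the 3 classes, 2.78-fold lower in S-rich and 1.71-fold higher in G2M-rich cells. Hist1h2bc was at 19.7, 4.76 and 22.6 CPM, 4.01-fold lower in S-rich cells and not called in G2M-rich cells. Hist2h2be, at 3.90, 0.476 and 5.97 CPM, was 8.33-fold lower in S-rich and 1.52-fold higher, called, in G2M-rich cells, and Hist2h3c1, with 0 UMIs there, at least 1.69-fold lower against a floor of 3 counts over the group. Hist1h1c, described above, is the other of the 6. Hist1h1c, Hist3h2a, Hist3h2ba and Hist1h2bc made up 13.7%, 10.7%, 9.62% and 9.38% of histone UMIs in the neither class, and 1.16%, 0.495%, 0.788% and 0.610% in G2M-rich cells.

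The members with the poly(A) signal shown above had smaller ratios. The 10 of them that were tested in G2M-rich cells had a median ratio of 2.01, from 0.871 to 48.2, against 18.6, from 0.405 to 242, for the 43 others. In S-rich cells 5 of 8 members with the signal were lower and 1 higher, with a median ratio of 0.514, whereas of 29 without it 1 was lower and 3 higher, with a median of 1.88. Over all genes 12.1% were higher and 15% lower, so the 3 of 29 are near the background. These calls also needed the direction of library 3, which had only 20 S-rich cells. Hist1h2ae, at 48.2-fold, and Hist1h4j, at 24.7-fold with 20 UMIs in all, are exceptions among those with the signal. Hist1h2bc and Hist2h3c2 are exceptions among those without it. The members without the signal include those with the short annotated transcripts named above. The split by this feature was made after ratios of these members were known, and its groups are described without a test.

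Histone RNA was highest where both cell cycle lists were high. Among cells with under 5 UMIs per 10000 of the G2 and M phase list, the members stayed between 153 and 312 CPM whatever the S phase list. Among cells at 80 or more on the G2 and M phase list, they were at 726 CPM (28 cells) where the S phase list was under 5, at 2743 CPM (29 cells) at 10 to 20 and at 5905 CPM (51 cells) at 40 to 80. The highest value, 7316 CPM, came from only 5 cells, at 80 or more on both lists.

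**Figure D3:**
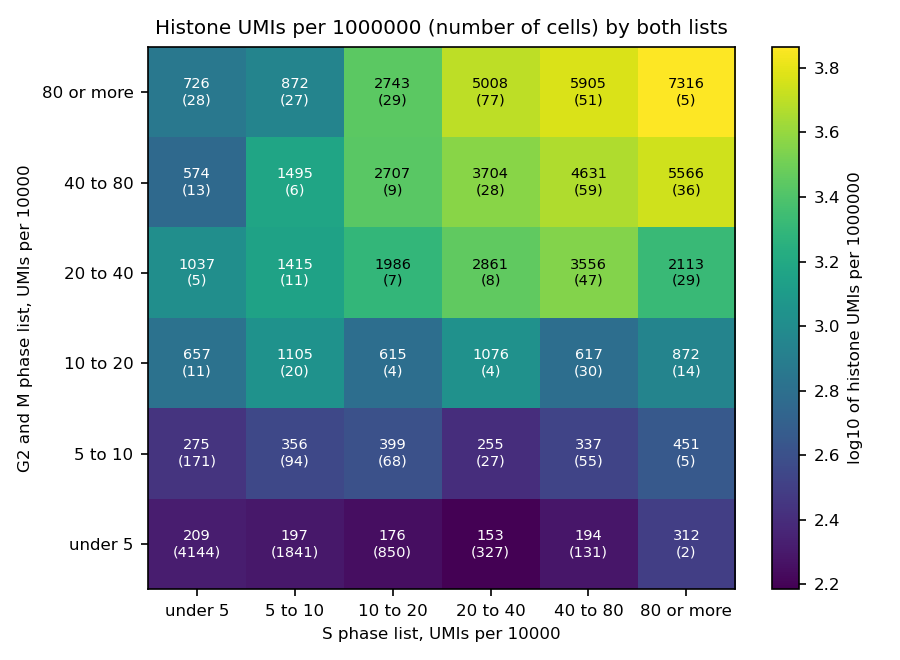
Histone UMIs per 1000000 UMIs, with the number of cells in parentheses, in bins of UMIs per 10000 of the S phase list (horizontal) and the G2 and M phase list (vertical); colour is the log10 of the histone level. Levels stay at or below 312 in the row with the G2 and M phase list under 5, and the highest level, 7316, is where both lists are at 80 or more.

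Of the 472 G2M-rich cells, 335 also reached the limit on the S phase list and 137 did not. Those with both stood at 5185, 3814, 6645 and 4533 CPM in libraries 1 to 4, and those without at 1734, 1309.5, 125 and 1970 CPM, where library 3 had a single cell. The ratio was 2.82-fold, higher in each of libraries 1, 2 and 4, and 1.75-fold without Hist1h2ap. Of 47 tested members 22 were higher in the cells with both, against 12.8% of all genes, and 1 was lower, against 10%, while 24 were not called. Hist1h2ap differed most, at 2767 against 607 CPM (4.52-fold). The member that was lower was Hist1h2bc, at 18.0 against 35.3 CPM (0.51-fold). Hist1h1c was at 41.5 against 47.3 CPM and was not called. Both the bins and this split were chosen after the data were seen, and the median depths of the cells compared were 9824 and 8993 UMIs.

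The libraries differed both in total histone RNA and in their share of G2M-rich cells. Over all cells the members were at 913, 711, 345 and 761 CPM in libraries 1 to 4. In the neither class the order was different, with 254 CPM in library 4, 236 CPM in library 3, 190 CPM in library 1 and 171 CPM in library 2, and the counting intervals overlapped between libraries 3 and 4 and between libraries 1 and 2, but not across these pairs. G2M-rich cells held 82.4%, 78.9%, 33.3% and 70.4% of the histone UMIs of libraries 1 to 4. Library 3, the lowest in total, had G2M-rich cells as 0.540% of its cells, against 7.15%, 8.93% and 5.84% in libraries 1, 2 and 4. Its 11 G2M-rich cells also differed in other genes. Of them 7 carried at least 2 of 10 markers of double-positive thymocytes, an earlier stage with CD4 and CD8, and the list was at 1852 CPM in them, against 49.2, 62.5 and 280 CPM in G2M-rich cells of libraries 1, 2 and 4. Their Treg markers were at 699 CPM, against 2663 to 3555 CPM in the others. Across all libraries, histone RNA in G2M-rich cells was 3866 CPM in the 48 cells with such double-positive markers and 3686 CPM in the 424 cells without them.

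**Figure D4:**
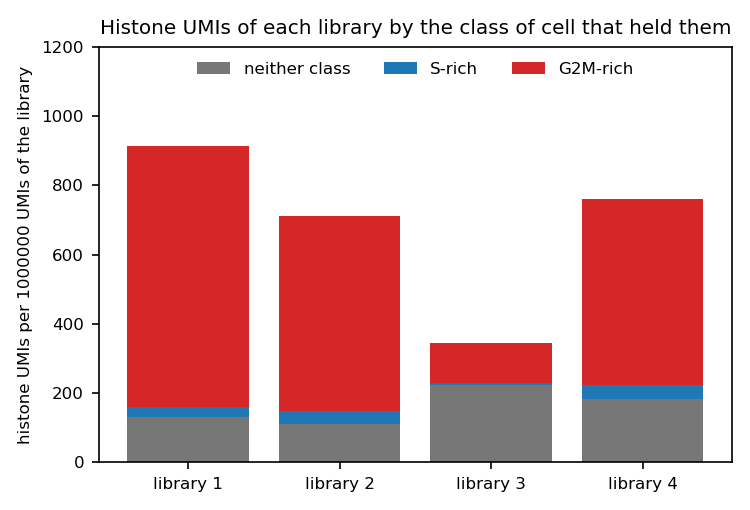
Histone UMIs per 1000000 UMIs of each library, divided by the class of cell that held them (grey neither class, blue S-rich, red G2M-rich). Bars reach 913, 711, 345 and 761 for libraries 1 to 4, and the red part is smallest in library 3.

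Several H2A and H2B genes lie head to head with a short shared upstream region, which gives pairs of members under the same stretch of DNA. There were 12 such pairs, 176 to 306 bases between starts, all of an H2A with an H2B gene, and in 7 of them both genes had at least 20 UMIs. The 250 bases before the H2A start are shown for 3 pairs that behaved differently, from RefSeq (GRCm38.p6), on the minus strand and reading toward the H2A gene. The CCAAT box (CCAAT), the TATA box (TATAAA) and the octamer (ATTTGCAT) are in capitals wherever they occur on either strand, so their reverse complements are marked as well, and no motif overlaps another in the windows shown.
Hist1h2ag with Hist1h2bj, chr13:22042950-22043199: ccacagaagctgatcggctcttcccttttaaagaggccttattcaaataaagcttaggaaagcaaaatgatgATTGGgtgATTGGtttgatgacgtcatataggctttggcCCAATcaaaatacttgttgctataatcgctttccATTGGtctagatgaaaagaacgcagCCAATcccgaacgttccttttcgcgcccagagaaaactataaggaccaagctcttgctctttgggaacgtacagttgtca
Hist1h2ac with Hist1h2bc, chr13:23683960-23684209: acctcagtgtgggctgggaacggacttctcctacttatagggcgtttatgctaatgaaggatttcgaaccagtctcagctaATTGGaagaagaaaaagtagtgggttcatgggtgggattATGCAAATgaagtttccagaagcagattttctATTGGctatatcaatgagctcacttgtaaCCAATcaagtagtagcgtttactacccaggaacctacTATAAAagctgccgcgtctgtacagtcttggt
Hist2h2ac with Hist2h2be, chr3:96220881-96221130: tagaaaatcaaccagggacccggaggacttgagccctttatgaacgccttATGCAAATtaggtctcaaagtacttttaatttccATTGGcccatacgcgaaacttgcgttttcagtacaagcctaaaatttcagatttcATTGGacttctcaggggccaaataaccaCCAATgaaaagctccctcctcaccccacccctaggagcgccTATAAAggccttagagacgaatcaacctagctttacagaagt
The Hist1h2ag and Hist1h2bj genes, 270 bases apart, had similar ratios in G2M-rich cells, 37.9-fold and 33.7-fold. Hist1h2ac and Hist1h2bc, 251 bases apart, did not. Hist1h2ac went from 1.31 CPM in the neither class to 22.6 CPM in G2M-rich cells (17.3-fold), while Hist1h2bc was at 19.7 and 22.6 CPM (1.19-fold, not called). Hist2h2ac and Hist2h2be, 239 bases apart, had ratios of 6.76-fold and 1.52-fold.

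**Figure D5:**
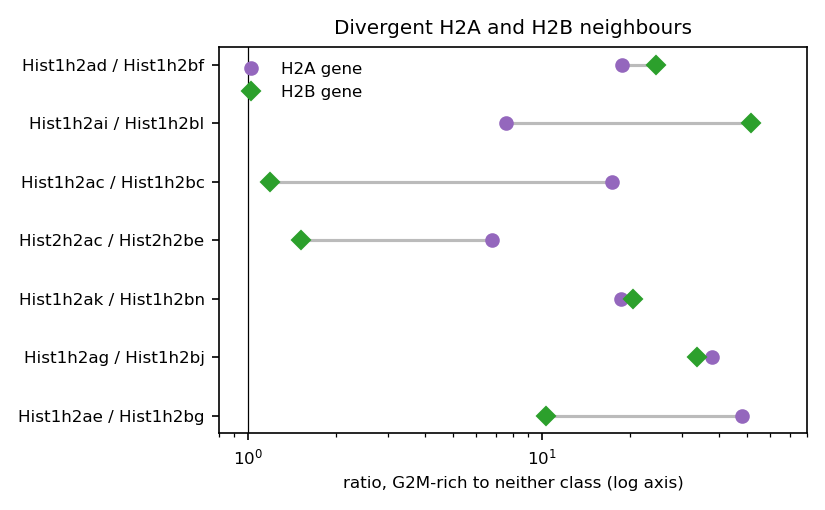
Ratio of G2M-rich to neither class cells (log axis) for the H2A gene (circle) and the H2B gene (diamond) of the 7 head-to-head pairs in which both have at least 20 UMIs. The members of Hist1h2ag / Hist1h2bj lie close together (37.9 and 33.7), and those of Hist1h2ac / Hist1h2bc far apart (17.3 and 1.19).

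In Hist1h2ae and Hist1h2bg, the pair with the shortest distance, the ratios were 48.2-fold and 10.3-fold, and in Hist1h2ai and Hist1h2bl they were 7.58-fold and 51.8-fold, so that either type could be the higher of a pair. Hist1h2br, the partner of Hist1h2ap, had 0 UMIs, and 99.8% of its 60-base stretches are shared with other histone transcripts. A RefSeq promoter of 300 bases, 250 before to 50 after the start, held the annotated start of 53 members on the same strand. CCAAT was in 84.9% of them, against 37.4% of 32851 promoters in all, TATAAA in 60.4% against 13.6%, and ATTTGCAT in 18.9% against 1.74%, with both strands searched. By type, CCAAT was in all 5 H1, 14 H2A, 13 H2B and 10 H3 promoters and in 3 of 11 H4 promoters, and ATTTGCAT was in 6 H2A and 4 H2B promoters only. Since head-to-head windows overlap, their counts are not independent, and a match is not a binding site.

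Genes that act on histones or their mRNAs were higher in S-rich cells more often than lower. Slbp, which binds the stem-loop, was at 69.8 CPM in the neither class, 301 CPM in S-rich and 369 CPM in G2M-rich cells (4.32-fold and 5.37-fold). Of 9 tested genes of histone gene transcription and 3' end processing, 6 were higher in S-rich cells and 6 in G2M-rich cells, with 0 lower in both. Over all genes 12.1% were higher and 15% lower in S-rich cells, and 15.4% and 17.9% in G2M-rich cells. Casp8ap2, a factor of the histone locus body, was 2.30-fold and Npat, the activator of histone gene transcription, 1.96-fold higher in S-rich cells. Of 14 histone chaperone genes 8 were higher and 1 lower in S-rich cells, and 10 higher and 1 lower in G2M-rich cells. Chaf1a, a subunit of the assembly factor that works at replication forks, went from 2.14 to 49.99 and 60.1 CPM in the 3 classes, and Asf1b, which carries H3 and H4, from 8.26 to 89.8 and 326 CPM. Hirip3 was 4.998-fold higher in S-rich cells and Daxx, a chaperone of H3.3, 1.65-fold lower.

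The variant histone genes, most of whose mRNAs are polyadenylated and not tied to replication, were described the same way. Of 10 tested, 2 were higher and 2 lower in S-rich cells, and 6 were higher and 0 lower in G2M-rich cells. Against the 12.1% and 15% of all genes, the S-rich shares of so short a list are near the background, and the G2M-rich ones stand beside 15.4% and 17.9%. H2afz was at 1037, 2417 and 4652 CPM in the 3 classes and H2afx at 44.1, 79.99 and 859 CPM, both called in S-rich cells. Cenpa, the H3 variant of the centromere, was lower in S-rich cells, at 19.3 against 50.5 CPM, and at 533 CPM in G2M-rich cells. H3f3b, an H3.3 gene, was at 2358 CPM in the neither class and 1502 CPM in S-rich cells (1.51-fold lower), and its G2M-rich level of 2417 CPM was not called.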

How the data were processed

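The authors deposited a table of UMI counts (27998 genes, 8273 cells, no normalization) and a table of log2 values (9571 genes, 7231 cells named G1). CASAVA 2.20, Cell Ranger 2.0.2, R 3.4.1 and mm10 are named per the submitters' processing notes, and the cell filter and strand setting are not given in the sources used here. Checked against the counts, each deposited log2 value equalled log2(count / cell factor + 1) to within 1.1e-14. That table holds 36 of the 66 members and was not used further. All 8273 columns were left unassigned to a sample. Of the barcodes, 27 occur in more than 1 library (54 cells). Doublets were not removed. Symbols were given to 27722 identifiers from GENCODE M21, and 5 listed genes, 1 of them of the processing list, were not analysed here.

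Ratios of CPM are Mantel-Haenszel ratios over all 4 libraries, so they can differ from the quotient of summed levels. A ratio against 0 UMIs used a floor of 3 counts over the group. The ratio was tested on simulated data. Members with at least 200 UMIs are named, with the 3 highest and 3 lowest ratios outside the G1 table among those with fewer, and up to 3 genes each way of the other lists. Members and lists were chosen with earlier results of these data known. The alternatives covered scaling (edgeR 4.0.16 for the trimmed mean of M-values), weighting, cell filters, thinning, class limits, minimum UMIs and leaving out libraries. R 4.3.3 and Python 3.11.15 were used, with pandas 2.3.3, matplotlib 3.10.9, scipy 1.17.1 and numpy 2.4.6.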

Additional observations from a re-analysis of the deposited data

How the results depend on the processing

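Values here are log2 ratios of histone CPM, counts of members called higher, or CPM. Of the alternatives, 69 stayed close to the reported value, 53 moved it beyond the counting interval or by over 1.5 times for a count, and 1 reversed a direction; causes were not tested. Outside against inside the G1 table (3.39, 41 members), the log2 ratio was 3.32 without mitochondrial and ribosomal protein genes in the scaling, 2.85 with each cell counted alike, 3.15 thinned, 2.54 without Hist1h2ap, 0.27 in neither class cells, and 3.25 to 3.47 leaving out a library. The count was 16 of 36 thinned, 4 of 32 in neither class cells, 25 of 30 with at least 100 UMIs and 39 to 47 leaving out a library. For S-rich against neither class cells (0.28, 4 members), the log2 ratio was 0.14 thinned, 0.062 without Hist1h2ap, -0.087 with a class limit of 10 UMIs per 10000, which turned the direction, 2.42 with a limit of 40, where cells at 20 to 40 on the G2 and M phase list can enter the S-rich class, and 0.19 to 0.32 leaving out a library. The count was 14 without double-positive-like cells and 14 in G1-table cells, runs in which library 3 also left the direction rule, 2 thinned, 2 and 33 with limits of 10 and 40, and 4 to 13 leaving out a library, with 13 without library 3. For G2M-rich against neither class cells (4.22, 49 members), the log2 ratio was 4.11 without mitochondrial and ribosomal protein genes, 4.28 without double-positive-like cells, 4.12 and 4.18 with limits of 10 and 40, 3.81 in G1-table cells, 3.08 without Hist1h2ap and 4.11 to 4.34 leaving out a library. The count was 30 thinned, 30 in G1-table cells, where only library 2 set the direction, 26 with at least 100 UMIs and 42 to 48 leaving out a library. For S-rich against G2M-rich cells (-3.92), the log2 ratio was -3.81, -4.06, -4.19, -1.76, -3.55 and -3.00 under the scaling, thinning, limits of 10 and 40, G1-table cells and without Hist1h2ap, and -4.02 to -3.80 leaving out a library. Library levels, in the order 1 to 4, were 1407, 1059, 520.4 and 1143 CPM without mitochondrial and ribosomal protein genes, 505, 438, 287 and 486 CPM with each cell counted alike, and 512, 444, 273 and 484 CPM thinned. Without double-positive-like cells libraries 1, 3 and 4 were at 862, 264 and 698 CPM. The runs without Hist1h2ap, in neither class cells and in G1-table cells were chosen after seeing the data. Small numbers of G2M-rich and S-rich cells in library 3 limit what its levels show. No paired analysis was possible because the replicate numbers of the labels cannot be tied to cells; ratios between cell sets are within library, by stratification.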
